A study of Rattus norvegicus with 4 samples.

Results

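Clustered YY1 peaks are described here, which are listed sites of the transcription factor YY1 in rat skin. They lie close to another listed site of the same skin area, with no listed peak of the other area within 1 kb. The members were chosen by position and score from 2 deposited peak lists, 1 per skin area. A peak was taken when it lay on chromosomes 1 to 20, had a deposited score under 100, had another peak of its own list (of any score) at a gap of 5 kb or less, and had no peak of the other list within 1 kb. In all, 1374 of the 26436 peaks of the series met the rule: 1003 of 16934 in the irradiated list and 371 of 9502 in the nonirradiated list.

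The 4 libraries of the series came from male Sprague-Dawley rats, an outbred stock, whose labels all give skin as the tissue and 4 weeks as the age. One area had received a single dose of 45 Gy from a 6 MeV electron beam at 750 cGy per min, and the other area was not irradiated. Each area gave 1 library of DNA immunoprecipitated with a YY1 antibody (ChIP) and 1 input library of chromatin without that step. The areas follow the tissue source in the labels. The irradiated libraries carry NC in their titles, which is not explained there, and if it marks something else the 2 area names would need another reading. The sources used here give neither the time after irradiation nor the number of animals per library. Whole skin holds many cell types, so a peak is an average over them, and fewer cells with a bound site cannot be told apart from less binding per cell. With 1 ChIP library per area, no value below has a replicate check and no p-value was computed.

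YY1 is a zinc-finger protein found in most tissues. It binds a short DNA motif at promoters and enhancers, activates some genes and represses others depending on its partners, and can pair with itself to hold distant sites together in loops. Regulatory regions often hold several binding sites of a factor side by side, which a peak caller can report as neighbouring peaks. Positions are on rat build rn5, for which no sequence or gene annotation was used here, so the regions are given by coordinates, width and score, without genes or motifs.

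Nearly all clusters were pairs. A cluster is a run of successive peaks of 1 list with gaps of at most 5 kb, whatever their score. On the 20 autosomes the irradiated list formed 590 clusters, of which 566 had 2 peaks, 22 had 3 and 2 had 4. The nonirradiated list formed 209 clusters, of which 201 had 2 peaks and 8 had 3. The longest runs thus held 4 and 3 peaks. No extended array of sites was seen in either list. A cluster of 2 spanned a median of 3394 bases in irradiated and 3656 bases in nonirradiated skin, and the longest cluster spanned 12078 and 12557 bases.

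Most peaks in these clusters were members, and most peaks of each list met the same limits on score and the other list. Among all autosomal peaks, with or without a neighbour, 13656 of 16592 irradiated and 8419 of 9318 nonirradiated ones met them. Of 1206 irradiated peaks with a neighbour, 184 scored 100 or more and another 19 lay within 1 kb of a nonirradiated peak, which left the 1003 members. Of 426 nonirradiated peaks with a neighbour, 34 scored 100 or more and another 21 lay within 1 kb of an irradiated peak, which left 371. At least 1 member was present in 574 irradiated and 204 nonirradiated clusters. All peaks were members in 403 and 159 of these, and the other 171 and 45 mixed members with stronger or co-located peaks. Together the members covered 492 kb in irradiated and 219 kb in nonirradiated skin.

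The thresholds of the rule had close values on either side. In the irradiated list the longest gap inside was 4978 bases (chromosome 5:40036097-40036548) and the shortest outside 5001 bases (chromosome 1:187484656-187485255). In the nonirradiated list these gaps were 4988 and 5025 bases. The highest member score was 99.77 in the irradiated list, held by 28 members, and the next score of a peak with a neighbour was 101.13. The nonirradiated list had a single member at 99.26 and a first excluded score of 101.51. The nearest peak of the other list to a member lay 1001 bases away in the irradiated and 1046 bases in the nonirradiated list, and the farthest excluded one 943 bases in both.

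The number of peaks with a neighbour was next set against even placement on the same chromosomes. Even placement means that each chromosome keeps its own number of peaks and their widths, that peaks do not overlap, and that every position up to the last peak of either list is equally likely. The value is an exact expectation from a formula, with no resampling. In irradiated skin 7.27% of the 16592 autosomal peaks had a neighbour (Wilson 95% interval 6.88 to 7.67), against 5.91% under even placement, a ratio of 1.23 (1.16 to 1.30). In nonirradiated skin the share was 4.57% of 9318 peaks (4.17 to 5.01), against 3.36%, a ratio of 1.36 (1.24 to 1.49). Both lists held more close neighbours than even placement gives, by less than the number it gives. In counts, 1206 irradiated peaks with a neighbour stood against 981 and 426 nonirradiated peaks against 313, an excess of 225 and 113 peaks. These even values also use stretches without any listed peak, which lowers them. The length was therefore also cut to the 1 Mb windows that hold a peak, 2612 in place of 2745 Mb. The irradiated ratio was then 1.18 (1.11 to 1.24) and the nonirradiated ratio 1.30 (1.18 to 1.43). Stretches where reads cannot be placed were not identified, since no sequence was used. Peaks with a neighbour come at least in pairs, so these intervals, which treat peaks as independent, are too narrow.

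The larger share of clustered peaks in irradiated skin went with its longer list, at 6.04 against 3.39 autosomal peaks per Mb. When the irradiated list was limited to its highest-scoring peaks, as many as the nonirradiated list holds, 4.34% had a neighbour (3.95 to 4.78) and the ratio to even placement was 1.30 (1.18 to 1.43). That interval overlaps the one of nonirradiated skin, and the difference between the areas was not tested. Read depth, which sets how many peaks pass the caller's threshold, is unknown.

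The ratios were lower when regional density was kept. When peaks were placed evenly within each 1 Mb window at the window's own peak number, the ratio was 1.15 in irradiated skin (1200 observed against 1046) and 1.26 in nonirradiated skin (426 against 338). Windows of 250 kb, added after the first values had been seen, gave 1.12 (1198 against 1073) and 1.23 (420 against 341). A window's peak number includes its clustered peaks, which raise its own even value. The lower ratios are therefore partly built in and do not measure regional density alone. Groups of 3 or more were rare, with 24 irradiated clusters against 14.6 under even placement over whole chromosomes and 8 nonirradiated clusters against 2.64. These counts are too small for a firm ratio. At 4 peaks the irradiated list had 2 clusters, against 0.441.

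The spacing of linked peaks differed little from an even spread. The median gap was 2378 bases in irradiated skin (95% interval of the median 2193 to 2582, 616 gaps) and 2431 bases in nonirradiated skin (2102 to 2875, 217 gaps). Even placement gives 2481 and 2490 bases, inside both intervals. The shortest gaps were 7 and 14 bases. Gaps under 200 bases made up 25 of the irradiated gaps (4.06%) and 12 of the nonirradiated gaps (5.53%). No even-placement value was computed for the shortest gap or for gaps under 200 bases. Gaps of up to 1 kb made up 23.1% in irradiated (19.9 to 26.5) and 23.0% in nonirradiated skin (17.9 to 29.1). Even placement gives 20.2% and 20.1%, inside both intervals.

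The ratio to even placement was highest at the shortest distance in the irradiated list. Of the irradiated gaps 79 were 500 bases or less, against 50.5 (ratio 1.56), and 63 were between 500 and 1000 bases, against 50.4 (1.25). The later bins of 500 bases up to 5 kb showed no steady fall. Their ratios ran from 1.05 (3000 to 3500 bases) to 1.36 (4000 to 4500 bases). From 5 to 10 kb, beyond the linking distance, 547 gaps stood against 483 (1.13), and from 10 to 20 kb 997 against 923 (1.08). In the nonirradiated list 27 gaps were 500 bases or less, against 15.9 (1.70), and 23 lay between 500 and 1000 bases, against 15.9 (1.45). A bin between 3000 and 3500 bases was as high there, with 27 gaps against 15.7 (1.71). Beyond the linking distance the ratio was 1.16 from 5 to 10 kb (180 against 155) and 1.08 from 10 to 20 kb (326 against 302). Within 1 Mb windows the ratio was 1.06 in both lists from 5 to 10 kb. From 10 to 20 kb, 979 irradiated gaps stood against 966 and 322 nonirradiated gaps against 321.

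**Figure D1:**
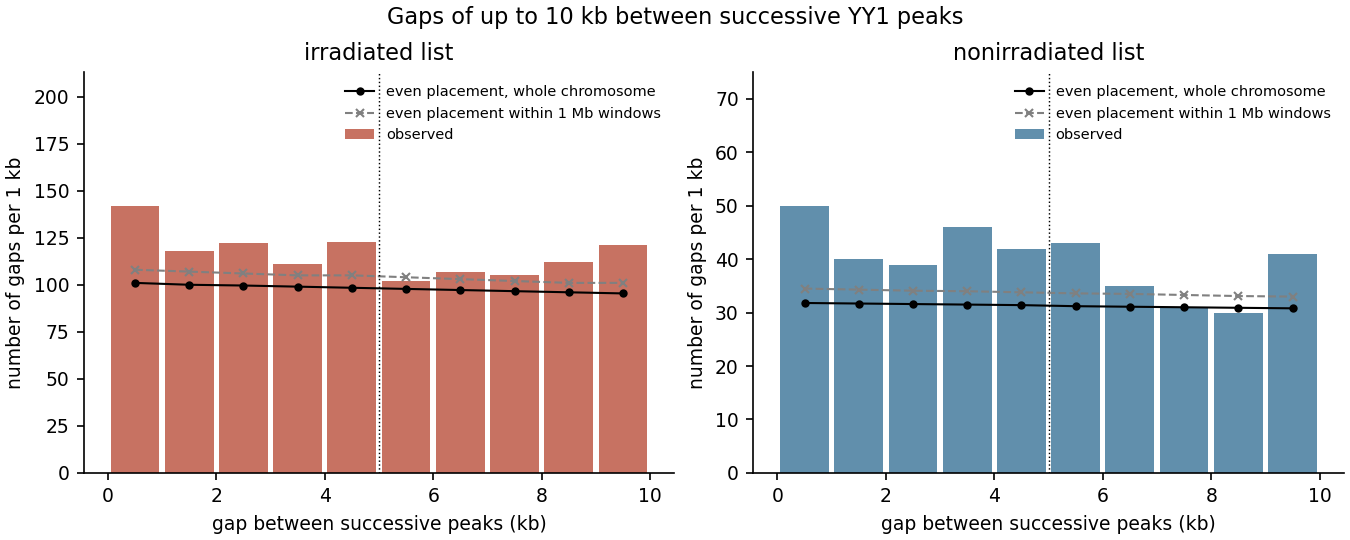
Number of gaps between successive autosomal YY1 peaks (y axis) by gap length in 1 kb bins (x axis, kb), for the irradiated list (left) and the nonirradiated list (right). Bars are observed gaps, the solid line is even placement over whole chromosomes, the dashed line even placement within 1 Mb windows, and the dotted line the linking distance of 5 kb. The first bin holds 142 irradiated gaps against 101 and 50 nonirradiated gaps against 31.8 under even placement over whole chromosomes.

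The closest pairs of members were almost touching. In irradiated skin a gap of 7 bases separated the peaks at chromosome 17:12928610-12929258 (score 57.58) and 12929266-12929837 (62.83), which together spanned 1228 bases. On chromosome 9, peaks at 38985322-38985917 (79.2) and 38985958-38986370 (76.75) lay 40 bases apart. A gap of 41 bases lay between 82796120-82796678 (54.96) and 82796720-82797251 (65.88) on chromosome 18. All 6 peaks of these pairs scored under 80.

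In nonirradiated skin the closest pair was at chromosome 16:24656067-24656745 (59.36) and 24656760-24657170 (61.98), with 14 bases between them. Next came chromosome 2:59435708-59436340 (57.57) and 59436392-59437049 (61.34), 51 bases apart. The third pair, with a gap of 90 bases, was at chromosome 2:183124059-183125359 (67.92) and 183125450-183125951 (61.77). It belonged to a cluster of 3.

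Pairs in which both members scored high had short and long gaps. The pair with the highest lower score in irradiated skin was at chromosome 2:81962094-81962498 (99.12) and 81962763-81963061 (99.77), 264 bases apart. The next, on chromosome 9, had peaks at 89831284-89832122 (96.66) and 89836237-89836565 (99.77), with a gap of 4114 bases. In nonirradiated skin the highest was at chromosome 2:62074507-62075184 (99.26) and 62080161-62080510 (86.56), with a gap of 4976 bases. The other 2 were at chromosome 1:37487466-37487767 (85.07) and 37489051-37489778 (86.77), 1283 bases apart, and at chromosome 2:105109655-105110241 (82.39) and 105112814-105113395 (90.23), 2572 bases apart. Scores are not compared between the areas, since each depends on the depth of its own library.

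The clusters with the most peaks in irradiated skin were both on chromosome 15. The first, at 52073878-52083828, held 4 members with scores of 95.88, 99.77, 63.64 and 74.34, in order along the chromosome, and gaps of 518, 3182 and 4191 bases. Its second peak was the narrowest, at 330 bases, and the nearest nonirradiated peak lay 224 kb from the cluster. The first 2 of its peaks were also the third-ranked pair by lower score. The second, at 32040894-32052971, held members scoring 61.5, 63.18 and 64.77 and a peak of 133.47 that the score limit left out.

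The most compact clusters of 3 in irradiated skin each joined a narrow peak over the score limit to 2 members. At chromosome 3:173602453-173604121, a peak of 247 bases with a score of 148.79 lay between members of 64.84 and 60.47. At chromosome 2:155980238-155982267, a peak of 269 bases (122.67) lay between members of 51.93 and 64.23. At chromosome 13:78579282-78581749, a peak of 295 bases (159.07) came first, followed by members of 64.14 and 53.31, and a nonirradiated peak lay 2.19 kb away. These 3 were chosen for their short span, which favours narrow peaks, so the pattern is not a property of all clusters of 3.

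The most compact clusters in nonirradiated skin were mostly made of members. At chromosome 19:31785692-31788394, members of 54.68, 79.85 and 61.05 lay 446 and 461 bases apart. Chromosome 7:48820099-48823592 held members of 70.71 and 64.62 around a narrow peak of 265 bases with a score of 111.79. Chromosome 12:37553493-37558208 held broad members of 1527 and 1629 bases (54.96 and 69.92) and one of 698 bases (55.69). Chromosome 2:183124059-183129586 held members of 67.92, 61.77 and 90.58, and chromosome 1:224552795-224559020 held members of 62.12, 75.54 and 66.67. The nearest irradiated peak to these 5 clusters lay between 59.8 and 283 kb away.

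**Figure D2:**
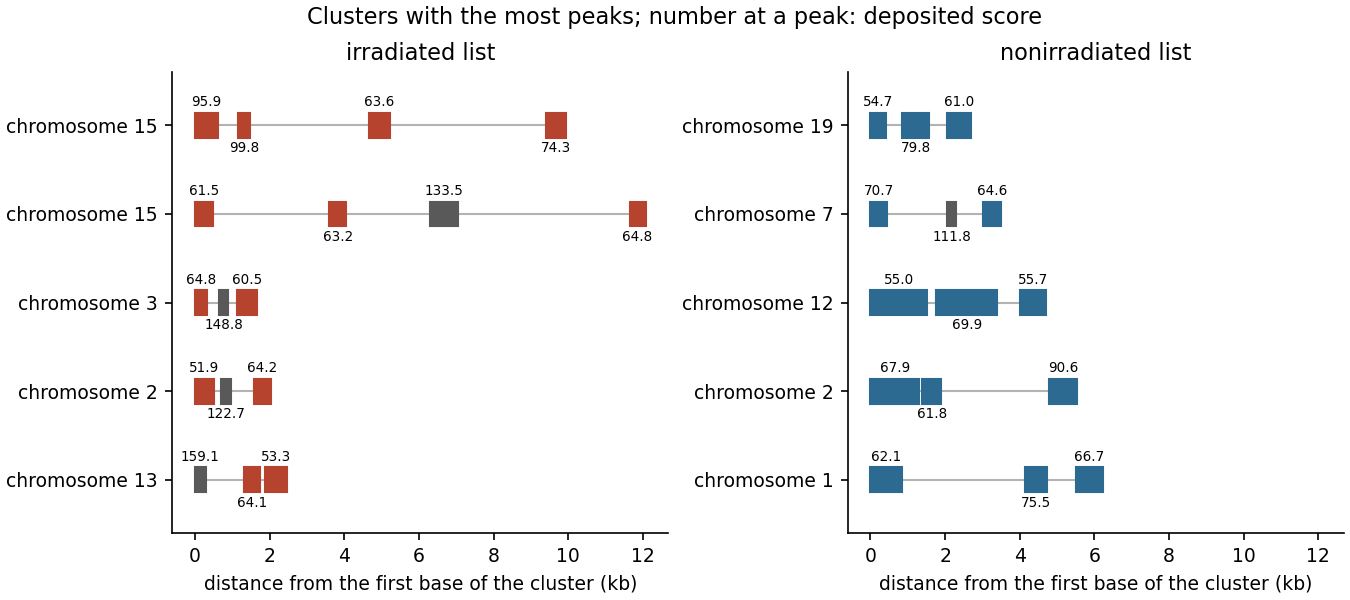
The 5 clusters with the most peaks in each list, drawn to scale along the x axis (kb from the first base of the cluster), 1 cluster per line with its chromosome named. Boxes are peaks at their width, coloured boxes are members, dark grey boxes are peaks left out by the score limit of 100, and the number at each box is the deposited score. The 2 clusters of 4 are both on chromosome 15 of the irradiated list.

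Widths of clustered and isolated peaks were close. Isolated peaks met the same limits on chromosome, score and distance to the other list but had no neighbour within 5 kb: 12653 in irradiated and 8048 in nonirradiated skin. Irradiated members had a median width of 496 bases (95% interval of the median 486 to 507, quartiles 412 and 561), and isolated peaks 502 bases (499 to 504, quartiles 417 and 567). The intervals overlapped. Nonirradiated members had a median width of 553 bases (530 to 561, quartiles 466 and 631), and isolated peaks 538 bases (534 to 541, quartiles 452 and 613). These overlapped too. At the upper end, 5% of nonirradiated members were wider than 931 bases, against 845 bases for isolated peaks, while in irradiated skin the corresponding widths were 667 and 676 bases.

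Score medians of clustered and isolated peaks also had overlapping intervals. The median score was 66.1 for irradiated members (65.0 to 67.4) and 65.4 for isolated peaks (65.0 to 65.7). In nonirradiated skin both medians were 59.5 (58.3 to 61.0 for members, 59.3 to 59.8 for isolated peaks). Peaks with a gap of at most 1 kb, the closest members, had medians of 66.2 (64.5 to 67.9, n = 237) and 60.2 (57.6 to 62.2, n = 81), inside the intervals of all members.

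**Figure D3:**
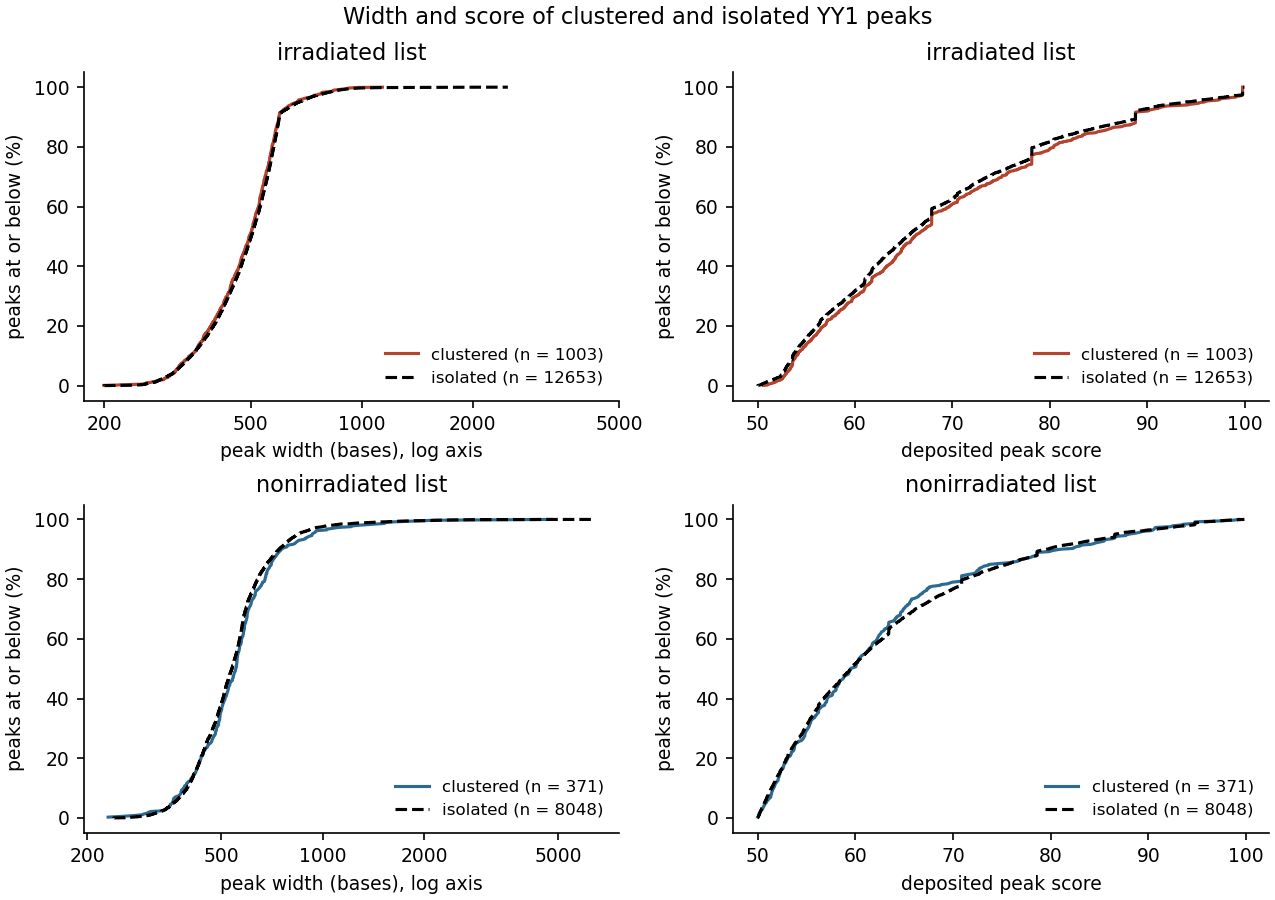
Cumulative share of peaks (y axis, %) by width in bases on a log axis (left) and by deposited score (right), for the irradiated list (top) and the nonirradiated list (bottom). Solid lines are clustered members and dashed lines isolated peaks. The lines of each panel nearly coincide, with medians of 496 and 502 bases in irradiated and 553 and 538 bases in nonirradiated skin. Steps in the irradiated scores are tied values, such as the 28 members at 99.77.

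The widest members were in nonirradiated skin and lay in 1 cluster. At chromosome 1:186401717-186414273, members of 2143, 837 and 4733 bases, with scores of 88.16, 61.13 and 67.01, filled most of 12557 bases. The third widest, 1881 bases, was at chromosome 7:21916915-21918795 (76.84), beside a member of 1073 bases at 21914467-21915539 (56.23). In irradiated skin the widest members measured 1139 bases (chromosome 16:552457-553595, score 73.45), 973 bases (chromosome 2:44428728-44429700, 63.03) and 950 bases (chromosome 1:122351513-122352462, 97.32). The 22 nonirradiated members in clusters of 3 had a median width of 680 bases (502 to 849), against 550 (527 to 559) for the 349 in clusters of 2. For the 64 irradiated members in clusters of 3 or more the median was 494 bases (470 to 532), against 496 (486 to 507). The nonirradiated intervals overlapped as well.

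The 2 peaks of a linked pair were compared with each other. Across the 616 irradiated linked pairs, Spearman's rho of the 2 scores was 0.016, and across the 217 nonirradiated pairs 0.005. Successive peaks farther than 5 kb apart gave 0.006 (15956 pairs) and -0.002 (9081 pairs). For widths the irradiated value was -0.021 and the nonirradiated value 0.155, against 0.016 and 0.017 for successive peaks that were not linked. The nonirradiated value was 0.098 over the 201 pairs in clusters of 2. Pairs of a list share 1 library, and these values are a description.

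A strong neighbour was about as frequent among members as strong peaks were in the list. The nearest neighbour of a member scored 100 or more in 158 of 1003 cases in irradiated skin (15.8%, 13.6 to 18.1), against 16.4% (15.8 to 17.0) of all autosomal peaks. In nonirradiated skin it did so in 33 of 371 cases (8.89%, 6.40 to 12.2), against 7.05% (6.55 to 7.59). Both intervals hold the share of the whole list. Both scores were 100 or more in 14 of 616 irradiated linked pairs and in 1 of 217 nonirradiated ones. Among successive peaks that were not linked, this held for 466 of 15956 irradiated and 44 of 9081 nonirradiated pairs.

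Peaks of the other skin area were then looked for around the members, beyond the 1 kb that the rule kept free. Of the irradiated members, 59 (5.88%, 4.59 to 7.51) had a nonirradiated peak between 1 and 5 kb away, against 405 isolated peaks (3.20%, 2.91 to 3.52). Even placement of the nonirradiated peaks gives 2.71% and 2.70%. The 59 members belonged to 45 clusters on 16 chromosomes and faced 45 different nonirradiated peaks, so they are fewer independent cases than members. In the other direction, 28 nonirradiated members (7.55%, 5.27 to 10.7) had an irradiated peak at that distance, against 449 isolated peaks (5.58%, 5.10 to 6.10) and 4.77% and 4.75% under even placement. These members belonged to 24 clusters. The 2 counts are not independent, since a close pair of clusters enters both.

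The same shares were taken at greater distances. Within 10 kb the irradiated shares were 9.67% of members (7.99 to 11.7) and 6.58% of isolated peaks (6.16 to 7.03), and within 50 kb 33.0% (30.2 to 36.0) and 31.1% (30.3 to 31.9). Nonirradiated members and isolated peaks had 13.2% (10.1 to 17.0) and 11.5% (10.9 to 12.3) within 10 kb. Within 50 kb the order was turned, with 41.5% of members (36.6 to 46.6) against 48.3% of isolated peaks (47.2 to 49.4). Whether stretches where peaks are more readily detected in either library underlie these values was not tested.

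**Figure D4:**
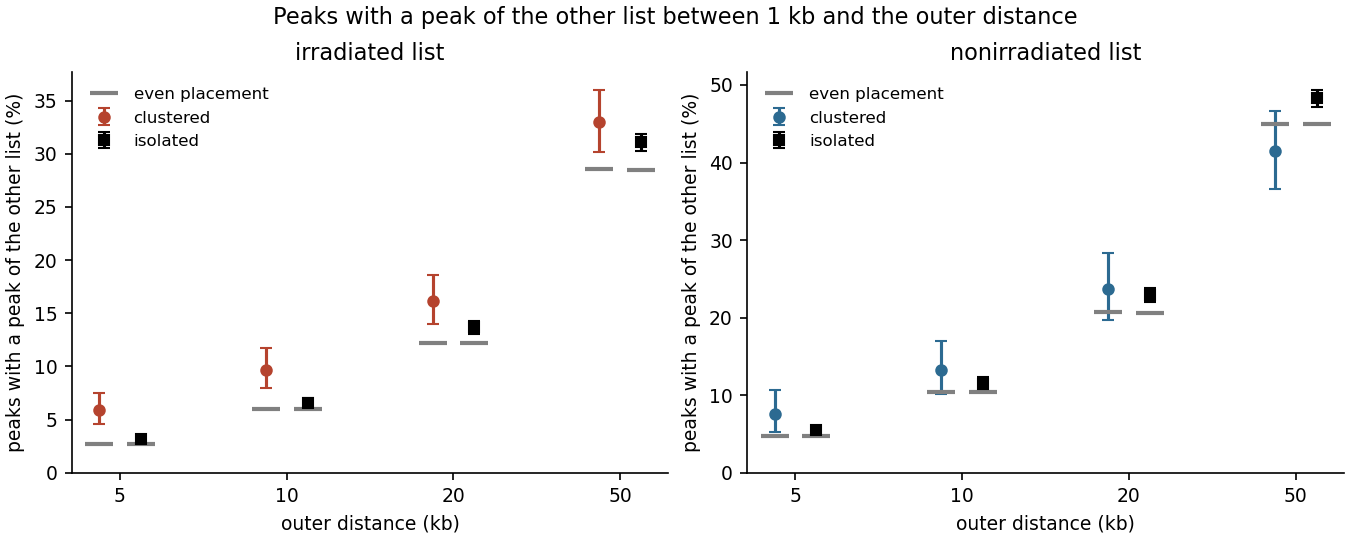
Share of peaks (y axis, %) with a peak of the other list between 1 kb and an outer distance of 5, 10, 20 or 50 kb (x axis), for irradiated (left) and nonirradiated peaks (right). Circles are clustered members and squares isolated peaks, with Wilson 95% intervals, and grey dashes are even placement of the other list. At 5 kb irradiated members stand at 5.88% and isolated peaks at 3.20%.

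The distance between clusters of the 2 areas was measured for the 574 irradiated clusters with a member, with no even-placement value beside it. Of these, 1 lay within 5 kb of a nonirradiated cluster with a member, 3 within 50 kb and 10 within 100 kb. The closest place was on chromosome 4, where irradiated peaks of 54.91 and 111.45 at 215730975-215736480 lay 2.44 kb from nonirradiated peaks of 60.1 and 62.5 at 215726346-215728534. On chromosome 1, irradiated members of 65.01 and 70.26 at 54937880-54941411 lay 13.2 kb from nonirradiated peaks of 60.83 and 146.12 at 54954643-54958502. The third place, on chromosome 5, had irradiated peaks of 95.01 and 111.07 at 145015349-145020549 and nonirradiated members of 63.99 and 88.72 at 144967666-144970621, 44.7 kb apart.

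Members were found on all 20 autosomes in both lists, from 13 (chromosome 12) to 123 (chromosome 1) in irradiated skin and from 6 to 57 on the same chromosomes in nonirradiated skin. The share of peaks with a neighbour was above even placement on 17 of the 20 autosomes in each list. Even placement lay inside the Wilson interval on 13 chromosomes in the irradiated and 16 in the nonirradiated list. The ratio was highest on chromosome 19 in both, at 1.60 (8.52% of 399 irradiated peaks, 6.16 to 11.7, against 5.33%) and 2.23 (6.93% of 231 nonirradiated peaks, 4.31 to 11.0, against 3.11%). It was lowest on chromosome 10 in irradiated skin (0.743, 30 peaks with a neighbour) and on chromosome 18 in nonirradiated skin (0.800, 8 peaks). Chromosome 1 was above even placement in both, at 1.38 (149 peaks) and 1.67 (64 peaks). These even values use each chromosome up to its last peak, so stretches without listed peaks lower them and raise the ratios. How far this differs between chromosomes was not tested.

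**Figure D5:**
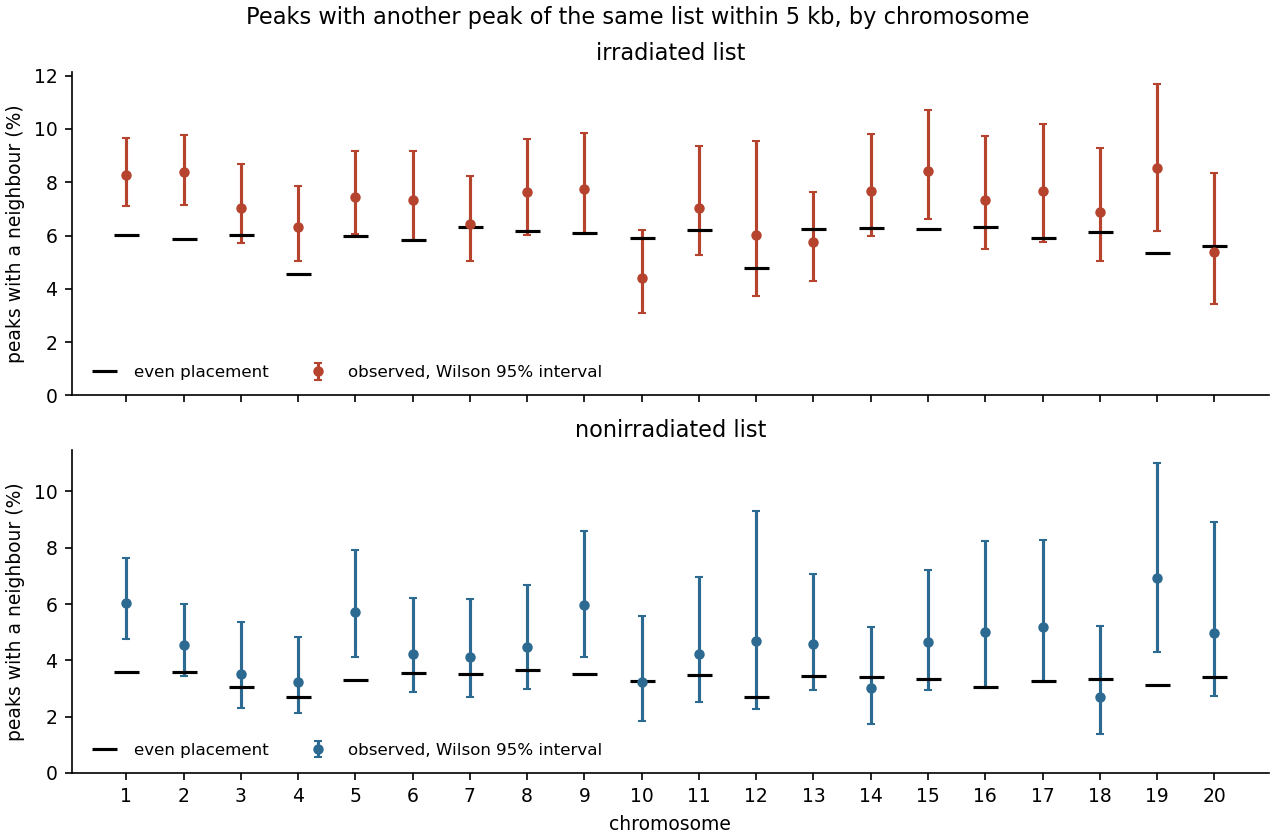
Share of peaks with another peak of the same list within 5 kb (y axis, %) on each autosome (x axis), for the irradiated list (top) and the nonirradiated list (bottom). Points are observed shares with Wilson 95% intervals and black dashes are even placement on that chromosome. Chromosome 19 has the highest share in both lists, 8.52% and 6.93%.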

How the data were processed

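Per the labels' protocols, YY1-bound DNA was read as 150-base paired ends. The submitters' processing notes list cutadapt 1.9.1, Bowtie2 2.2.4 and build rn5. The peak identifiers name MACS, of unstated version. Each of the 2 deposited lists gives a start and end per peak, counted from 0 (other values) and printed here 1-based, and a score. The deposited score is the authors' own value per peak and behaves as a log10 p-value times minus 10, with lowest autosomal values of 50.01 and 50. It depends on depth, which is unknown, and was used only within a list.

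Gaps count the bases between peak ends. The even-placement expectation treats gaps as those of points on the chromosome less the summed widths. Its counts of peaks with a neighbour, gaps and clusters over whole chromosomes at 5 kb were tested on simulated data. Even values for windows, gap bins, other linking distances and the other list were not. Intervals of shares are Wilson and of medians binomial order statistics, both at 95%, and cover counting error only. Calculations used Python 3.11.15 with scipy 1.17.1, pandas 2.3.3, numpy 2.4.6 and, for the plots, matplotlib 3.10.9.

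The members were chosen with earlier results of these data known. Regions named are, per list, the 5 clusters with most peaks (ties to the shorter span), the 3 member pairs with the shortest gap and the 3 with the highest lower score, the 3 widest members, the 3 places where clusters of the lists lie nearest, and peaks beside each threshold. Alternatives were linking distances of 2 and 10 kb, removal of the widest 5% of peaks, a score minimum of 60, equal list length, other lengths and windows for even placement, and looser limits on score and the other list. Other-list distances, chromosome starts and the 250 kb windows were chosen after seeing the data. The 2 input libraries and the X chromosome were outside the rule.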

Additional observations from a re-analysis of the deposited data

Results flagged for a closer look

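The median width of clustered against isolated peaks went opposite ways in the 2 areas. Clustered peaks were narrower by a median difference of -6 bases in irradiated skin and wider by 15 bases in nonirradiated skin. These differences moved with the processing. Without the widest 5% of peaks the nonirradiated one was 2 bases (532 against 530 bases), and with linking at 10 kb the irradiated one was 0. The difference between the areas was not tested, and the intervals of the clustered and isolated medians overlapped in each list.

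The X chromosome, which the rule leaves out, also held close neighbours. In the irradiated list 20 of 342 X peaks had a neighbour within 5 kb (5.85%, Wilson 95% interval 3.82 to 8.86), against 2.19% under even placement, a ratio of 2.67. In the nonirradiated list 4 of 184 did (2.17%, 0.849 to 5.46), against 1.18% under even placement, which lies inside that interval. The 20 peaks were joined by 10 gaps and the 4 peaks by 2, so both intervals, which treat peaks as independent, are too narrow. Of the 20 irradiated peaks, 2 scored 100 or more, and of the 4 nonirradiated peaks none did.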

How the results depend on the processing

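Under the alternatives, 39 of 114 values were rated as moved and 75 as the same. Numbers of members and clusters have no interval, and their rating allowed more than counting error. With no upper limit on the score, for example, 1186 irradiated members against 1003 were rated the same. All 16 irradiated and 14 nonirradiated ratios to even placement stayed above 1, from 1.11 to 1.31 and from 1.22 to 1.44. Irradiated values come first in each pair below. A linking distance of 2 kb left 436 and 150 members, 3.10% and 1.90% of peaks with a neighbour, 254 and 87 clusters, median gaps of 883 and 886 bases, and a median nonirradiated member score of 61.2. A distance of 10 kb gave 1829 and 678 members, 13.4% and 8.27%, 1065 and 374 clusters, median gaps of 4717 and 4562 bases, and an irradiated cluster ratio of 1.15. The direction of these counts and gaps is fixed by the distance. A score minimum of 60 left 5.63% and 2.55% with a neighbour and 338 and 60 clusters, since fewer peaks remain. At equal list length the irradiated list had 4.34%, 201 clusters and ratios of 1.30 for peaks and 1.31 for clusters. Even placement within 1 Mb windows gave irradiated ratios of 1.15 for peaks and 1.14 for clusters. Windows of 250 kb gave 1.12 and 1.11 in irradiated and 1.23 and 1.22 in nonirradiated skin. Without the widest 5% of peaks, isolated peaks had median widths of 494 and 530 bases, and nonirradiated clustered peaks 532. With no upper limit on the score, irradiated medians were 478 bases and 69.3 for clustered and 480 bases and 68.3 for isolated peaks, and the nonirradiated isolated score was 60.7. Irradiated clustered peaks were narrower than isolated ones in 5 of 6 settings and equal in 1. Nonirradiated ones were wider in all 6, by 2 to 18 bases, with 2 bases once the widest 5% of peaks were removed. The median score of irradiated clustered peaks was above that of isolated ones in all 6 settings, by 0.2 to 1.0. In nonirradiated skin it was higher in 5 settings, by at most 1.7, and equal in 1. These differences were not tested.

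No library was left out, and no paired analysis was possible because each area has 1 ChIP library. Unknown depth limits what the absence of a neighbour, or of a peak in the other area, shows, since a site under the threshold is not listed.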

Other observations

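Irradiated members were more often near the start of a chromosome than isolated peaks. Of 1003 members, 58 lay in the first 5 Mb (5.78%, Wilson 95% interval 4.50 to 7.40), against 425 of 12653 isolated peaks (3.36%, 3.06 to 3.69) and 3.58% under even placement. The 58 members lay in 32 clusters on 13 chromosomes, and 11 of these members were on chromosome 2. In the last 5 Mb before the final peak of a chromosome the order was opposite, with 2.89% of members (2.02 to 4.12) and 4.08% of isolated peaks (3.75 to 4.44). Nonirradiated members had 4.85% (3.09 to 7.54) in the first 5 Mb and 5.39% (3.52 to 8.18) in the last, against 3.38% (3.01 to 3.80) and 3.44% (3.07 to 3.86) of isolated peaks.

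Nonirradiated peaks with a neighbour, of any score, had an irradiated peak within 1 kb in 22 of 426 cases (5.16%, 3.43 to 7.70), in 18 clusters, against 239 of 8892 peaks without a neighbour (2.69%, 2.37 to 3.04). For irradiated peaks the shares were 1.66% (1.08 to 2.55) and 1.55% (1.36 to 1.75).

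The share of peaks with a neighbour was also taken by score. At scores from 50 to 60 a neighbour was present for 6.99% (6.27 to 7.78, irradiated) and 4.39% (3.83 to 5.04, nonirradiated) of the peaks. From 80 to 100 the shares were 8.20% (7.20 to 9.32) and 5.13% (3.83 to 6.84), and at 100 or more 6.77% (5.88 to 7.77) and 5.18% (3.73 to 7.14). At 200 or more, the irradiated list had 8 of 102 (7.84%, 4.03 to 14.7) and the nonirradiated list 2 of 102 (1.96%, 0.539 to 6.87). The intervals of these bands overlapped within each list.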
